A study of Homo sapiens with 6 samples.

Results

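The genes described here are 10 effectors of the arm of the stress response run by ATF4 and CHOP: ATF4, ATF5, DDIT3, TRIB3, CHAC1, ASNS, PPP1R15A, CEBPB, CEBPG and VLDLR. They were matched by gene symbol, and all 10 were found among the 27754 genes counted in each library. RNA sequencing of T47D cells, a human breast cancer line of luminal type, compared 3 normoxia libraries with 3 hypoxia libraries to ask how low oxygen changes the transcripts of these cells. The normoxia libraries came from cells in 20% O2 under ordinary culture, and the hypoxia libraries from cells held for 48 h in a chamber that the sample labels set at 0.5% O2 and the text of the study at 1% O2. All cells grew attached in RPMI medium with 10% FBS, and every library came from this 1 cell line. The study calls its experiments independent, but nothing in the labels says that these replicates were separate cultures, and the p-values measure the spread between these libraries.

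In the integrated stress response, kinases that sense viral RNA, misfolded protein, lack of amino acids or lack of haem phosphorylate the initiation factor eIF2 on its alpha subunit. Most translation then slows, while the mRNA of ATF4, which carries upstream open reading frames, is translated more. ATF4 and its partners switch on genes for amino acid supply and redox balance, and in lasting stress they switch on DDIT3, which encodes CHOP. Gene counts report the amount of each mRNA and not its translation.

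The libraries held 32989104 to 40943424 counted reads, except for hypoxia replicate 3 with 89883409. Levels are given as CPM, the counts of a gene in 1000000 counted reads, after TMM scaling, and the tests are edgeR's quasi-likelihood test with Benjamini-Hochberg adjustment over 15657 genes. The 10 hypoxia genes used as a check of the labels summed to 889 to 1006.9 CPM in normoxia and to 4323 to 4557.9 CPM in hypoxia, and 10 of 10 were called higher. The 12 luminal epithelial markers summed to 14820 to 19103 CPM in normoxia and to 10919 to 14239 CPM in hypoxia, and TFF1 was the 1 marker below 2 CPM in every library. The 12 markers of other cell types summed to 86.6 to 111 CPM in normoxia and 82.1 to 116 CPM in hypoxia. Most of this came from the mesenchymal marker COL1A1, at 76.9 to 99.1 CPM over all libraries. The 11 markers left after COL1A1 summed to 2.66 to 16.2 CPM in normoxia and 5.19 to 16.8 CPM in hypoxia. Replicate 3 of both conditions stood apart in VIM, a mesenchymal filament gene, with 395 and 1001 counts against 7 to 35 in the other 4 libraries. In bulk RNA, fewer cells that express a gene and less of its mRNA per cell cannot be told apart.

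Of these genes 9 rose in hypoxia and 1, ATF5, fell. All 10 could be tested, and 9 were called higher at an adjusted p below 0.05, where 30.4% of all tested genes were called higher. The 1 called lower compares with 29.1% of all tested genes. Of the 9, 7 rose at least 2-fold, which is 1 on the log2 scale, against 15.2% of all tested genes. For those 9 genes every hypoxia library lay above every normoxia library, as for 34.9% of all tested genes, and for ATF5 every hypoxia library lay below every normoxia library, as for 32.4%. The median log2 change was 1.29 over the 10 genes and 0.028 over all tested genes. A fit that blocked on replicate number gave the same counts, 9 higher and 1 lower. That fit called 5733 of the 15657 tested genes higher and 5511 lower.

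**Figure D1:**
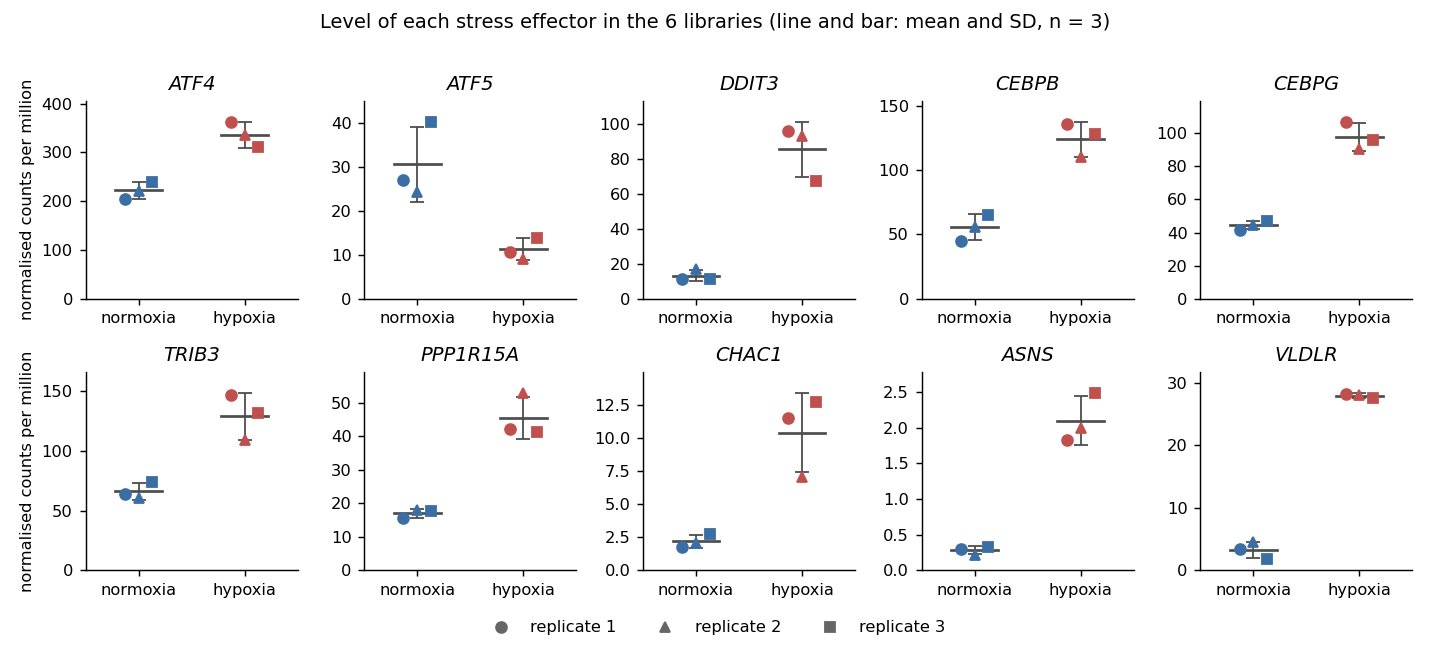
Normalised CPM (vertical axis, from 0, with its own scale for each gene) of the 10 stress effectors in the 3 normoxia libraries (blue) and the 3 hypoxia libraries (red), with the mean and SD of 3. ATF5 is the 1 gene whose hypoxia libraries (9.05 to 13.9 CPM) lie below its normoxia libraries (24.2 to 40.2 CPM).

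ATF4, the transcription factor whose translation the stress response releases, had the smallest rise of the 9. It was present at 205, 221 and 240 CPM in normoxia replicates 1, 2 and 3 and at 363, 336 and 311 CPM in hypoxia replicates 1, 2 and 3. The groups did not overlap, and the lowest hypoxia library (311 CPM) and the highest normoxia library (240 CPM) were both replicate 3. ATF4 rose 1.51-fold (95% interval 1.31 to 1.75), a log2 change of 0.60 ± 0.09 (SE) with an adjusted p of 0.00105. Between libraries of the same replicate number the log2 ratio was 0.82, 0.60 and 0.37 for replicates 1, 2 and 3. The gene lies at chr22:39916564-39918691 on the plus strand (GRCh37, as all positions from the count files). Sequences at least 80% identical to 70.1% of its 2027 exon bases lie elsewhere in GRCh37, the longest being 1234 bases on chromosome 17 at 97% identity. How reads with several matches were treated is not given in the sources used here.

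ATF5, a close relative of ATF4 that is also translated under stress, moved the other way. It measured 27, 24.2 and 40.2 CPM in the 3 normoxia libraries and 10.5, 9.05 and 13.9 CPM in the 3 hypoxia libraries. In each condition replicate 3 was the highest library, yet the conditions did not overlap. ATF5 was 2.71-fold lower in hypoxia, with a log2 change of -1.44 ± 0.23 (SE) and an adjusted p of 0.0012. The 3 replicate pairs gave log2 ratios of -1.37, -1.42 and -1.53, the narrowest spread between pairs among the 10 genes. With the replicate block the SE fell from 0.23 to 0.08 and the adjusted p to 3.28e-06. ATF5 (chr19:50431959-50437193, plus strand) shares 75 exon bases with NUP62 and with IL4I1 on the opposite strand. It shares 74 with MIR4751 on the same strand, which had 0 counts in every library. NUP62 gave 5267, 4464 and 4562 counts in normoxia and 2578, 2274 and 7904 in hypoxia. ATF5 itself gave 1065, 901 and 1243 counts in normoxia and 424, 331 and 1273 in hypoxia.

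DDIT3, which encodes the stress factor CHOP, showed one of the 3 largest rises. Its level was 11.2, 16.8 and 11.2 CPM in normoxia and 95.9, 92.9 and 67.3 CPM in hypoxia. All hypoxia libraries were well above all normoxia libraries, and hypoxia replicate 3 was the lowest of its group. The rise was 6.53-fold (95% interval 4.71 to 9.05), with a log2 change of 2.71 ± 0.20 (SE) and an adjusted p of 7.04e-05. DDIT3 lies at chr12:57910371-57914300 on the minus strand, and 68 of its 1178 exon bases overlap MARS on the other strand. MARS itself, which encodes the methionyl-tRNA synthetase, was not called, at a log2 change of 0.04 ± 0.12 (adjusted p = 0.766).

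CEBPB and CEBPG, members of the C/EBP family that pair with ATF4 or CHOP, both rose. CEBPB measured 45.2, 56.1 and 65.1 CPM in normoxia and 136, 110 and 128 CPM in hypoxia, and CEBPG measured 41.8, 44.6 and 46.9 CPM and 107, 90.4 and 95.9 CPM. Neither gene had overlapping groups. CEBPB rose 2.24-fold (log2 change 1.17 ± 0.14 SE, adjusted p = 4.11e-04). CEBPG rose 2.2-fold (log2 change 1.14 ± 0.09 SE, adjusted p = 8.85e-05), with the smallest spread of the 10 genes among normoxia libraries (CV 5.79%). For CEBPB (chr20:48807120-48809227, plus strand), 561 of 2108 exon bases, or 26.6%, overlap the antisense gene CEBPB-AS1. The counts of CEBPB-AS1 were 46 to 126 in normoxia and 189 to 242 in hypoxia, against 1786, 2088 and 2015 and 5500, 4007 and 11689 for CEBPB itself. With no strand setting given, reads of a gene and its antisense partner cannot be told apart on shared bases. CEBPG (chr19:33864575-33873592, plus strand) overlaps no other counted gene.

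TRIB3, a pseudokinase induced by ATF4 and CHOP that binds ATF4, rose about as far as the C/EBP genes, with overlapping 95% intervals. It measured 64, 60.6 and 74.2 CPM in normoxia and 147, 109 and 132 CPM in hypoxia, where replicate 2 was the lowest. The groups did not overlap. The rise was 1.95-fold (95% interval 1.59 to 2.4), with a log2 change of 0.96 ± 0.13 (SE) and an adjusted p of 5.74e-04. TRIB3 lies at chr20:361273-378203 on the plus strand and overlaps no other counted gene.

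PPP1R15A encodes GADD34, the inducible subunit that directs a phosphatase to eIF2 alpha and so restores translation. Its level was 15.5, 17.9 and 17.8 CPM in normoxia and 42.3, 52.8 and 41.3 CPM in hypoxia. The normoxia libraries were close together and hypoxia replicate 2 was the highest library, with no overlap. PPP1R15A rose 2.66-fold (95% interval 2.19 to 3.24), with a log2 change of 1.41 ± 0.12 (SE) and an adjusted p of 1.11e-04. The gene lies at chr19:49375649-49379319 on the plus strand and overlaps no other counted gene.

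CHAC1, which encodes an enzyme that degrades glutathione, was a low transcript in normoxia. It gave 71, 78 and 85 counts in normoxia, or 1.8, 2.1 and 2.75 CPM, and 464, 257 and 1161 counts in hypoxia, or 11.5, 7.03 and 12.7 CPM. Hypoxia replicate 2 was well below the other hypoxia libraries but above every normoxia library. The rise was 4.73-fold (95% interval 3.09 to 7.24), with a log2 change of 2.24 ± 0.27 (SE) and an adjusted p of 3.50e-04. CHAC1 lies at chr15:41245347-41248717 on the plus strand and overlaps no other counted gene.

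ASNS, asparagine synthetase, had the fewest counts of the 10 genes, 12, 8 and 10 in normoxia and 74, 73 and 227 in hypoxia. In CPM these were 0.304, 0.215 and 0.323 against 1.83, 2 and 2.48, and the groups did not overlap. The fitted rise was 7.51-fold (95% interval 4.84 to 11.6), with a log2 change of 2.91 ± 0.27 (SE) and an adjusted p of 1.54e-04. The level of ASNS is uncertain, because 2368 of its 3007 exon bases (78.7%) are shared on the same strand with the read-through gene CZ1P-ASNS, which leaves 639 unshared bases. Whether reads on shared bases were counted is not given in the sources used here. CZ1P-ASNS gave 6, 3 and 8 counts in normoxia and 25, 22 and 69 in hypoxia, and with its counts added the log2 change was 2.65 (adjusted p = 2.39e-04, edgeR). This sum holds only reads assigned to either gene, so it cannot show any reads on shared bases that were left uncounted. Sequences at least 80% identical to 86.8% of the exon bases of ASNS lie elsewhere in GRCh37, in 50 alignments with identities of up to 96.3%. The pseudogene ASNSP1 gave more counts than ASNS in every library, with 57, 67 and 16 in normoxia and 823, 544 and 1331 in hypoxia. ASNS lies at chr7:97481429-97557874 on the minus strand.

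VLDLR, a receptor for lipoproteins and reelin, had the largest estimate of the 10 genes. What part of its rise went with ATF4 was not tested. It measured 3.47, 4.46 and 1.81 CPM in normoxia and 28.2, 28 and 27.5 CPM in hypoxia. The hypoxia libraries were nearly equal (CV 1.29%), while the normoxia libraries varied most of the 10 genes (CV 41.3%), with replicate 3 lowest. VLDLR rose 8.52-fold (95% interval 5.56 to 13.1), with a log2 change of 3.09 ± 0.27 (SE) and an adjusted p of 1.12e-04. The replicate pairs gave log2 ratios of 3.02, 2.65 and 3.93. VLDLR lies at chr9:2621774-2656103 on the plus strand, and 172 of its 5273 exon bases overlap VLDLR-AS1 on the other strand, which had 0 to 1 counts in normoxia and 10 to 28 in hypoxia.

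In descending order of fold change the genes were VLDLR, ASNS, DDIT3, CHAC1, PPP1R15A, CEBPB, CEBPG, TRIB3, ATF4 and ATF5. The 95% intervals of neighbours in this order overlapped for every pair except ATF4 and ATF5. All 3 replicate pairs had the direction of the fitted change for each of the 10 genes. Differences between the fold changes of neighbours were not tested.

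**Figure D2:**
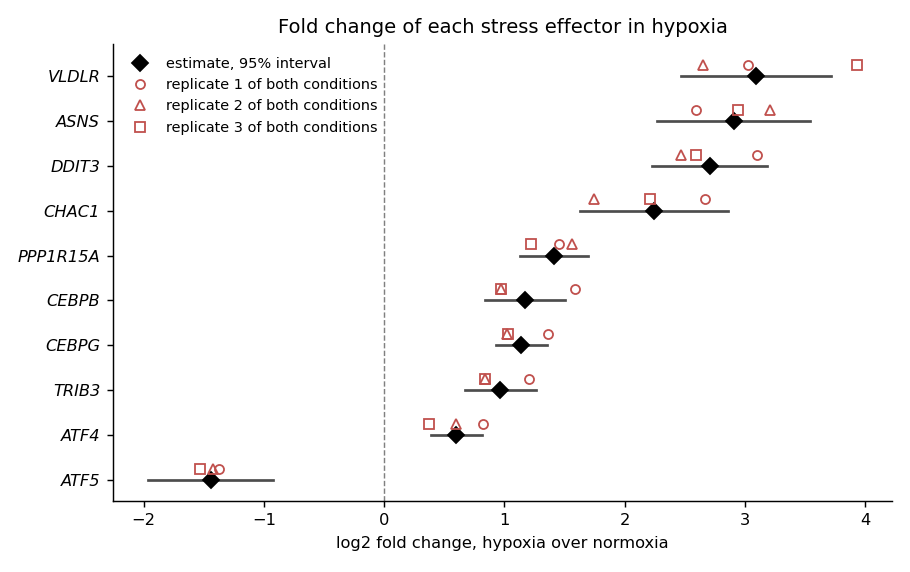
Log2 change of hypoxia over normoxia (horizontal axis) for the 10 stress effectors, as the edgeR estimate with its 95% interval (black) and as the ratio within each replicate number (red, drawn just above). VLDLR (3.09), ASNS (2.91) and DDIT3 (2.71) are farthest right, and ATF5 (-1.44) is the 1 gene left of 0.

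Levels can be compared between genes only per length, as CPM per kilobase of counted exon, and ASNS was left out of this comparison for its shared exons. In normoxia ATF4 had the highest level, 110 CPM per kilobase, followed by CEBPB at 26.3, TRIB3 at 23, ATF5 at 11.7, CEBPG at 11.5, DDIT3 at 11.1, PPP1R15A at 7.17, CHAC1 at 1.2 and VLDLR at 0.616 (means of 3). The library ranges overlapped between CEBPB and TRIB3, between ATF5 and CEBPG, and between CEBPG and DDIT3, so these neighbours did not differ beyond their spread. In hypoxia ATF4 was again first at 166 CPM per kilobase, and DDIT3 was second at 72.4, followed by CEBPB at 59, TRIB3 at 44.8, CEBPG at 25.3, PPP1R15A at 19.1, CHAC1 at 5.62, VLDLR at 5.29 and ATF5 at 4.28. Here the ranges overlapped between DDIT3 and CEBPB, between CHAC1 and VLDLR, and between VLDLR and ATF5. In mean level DDIT3 thus went from the sixth place of 9 to the second, and ATF5 from the fourth to the last.

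**Figure D3:**
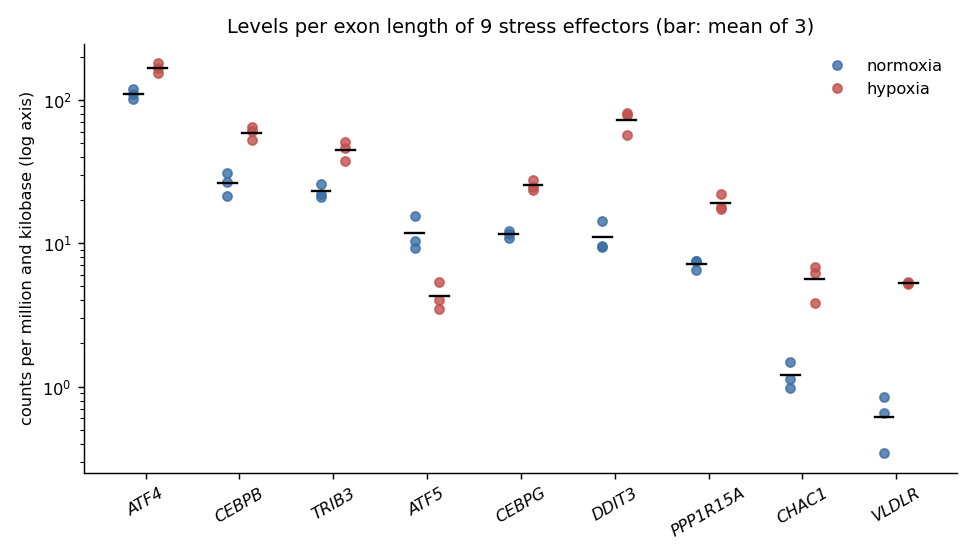
CPM per kilobase of exon (vertical log axis) of 9 stress effectors, ordered by their normoxia mean, in 3 normoxia libraries (blue) and 3 hypoxia libraries (red), with bars at the means. DDIT3 lies at 11.1 in normoxia and 72.4 in hypoxia, while ATF5 lies at 11.7 and 4.28.

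Several of the 10 genes have a relative that did not move with them, and the ratio of the levels per kilobase within each library shows the shift. CHAC1 was 0.14 to 0.229 of CHAC2, the constitutive enzyme of the same family, in normoxia and 2.95 to 3.53 of it in hypoxia. CHAC2 itself fell from 8.91 ± 2.13 to 2.35 ± 0.632 CPM (SD, n = 3), a log2 change of -1.90 ± 0.26 (adjusted p = 6.17e-04). The inducible phosphatase subunit PPP1R15A was 0.234 to 0.3 of its constitutive counterpart PPP1R15B in normoxia and 0.51 to 0.669 in hypoxia. PPP1R15B was not called, with a log2 change of 0.24 ± 0.11 (adjusted p = 0.0845), but was called higher with the replicate block (adjusted p = 0.00645). Against LRP8, another receptor for reelin, VLDLR was 0.0811 to 0.218 in normoxia and 1.88 to 2.99 in hypoxia. LRP8 was called lower, with a log2 change of -1.04 ± 0.19 (adjusted p = 0.00226).

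In the C/EBP family CEBPA was called lower, and CEBPB, CEBPG and CEBPD were called higher. The ratios given here for CEBPB and CEBPG use CEBPA only. CEBPB was 1.96 to 2.32 times CEBPA in normoxia and 7.01 to 9.71 times in hypoxia, and CEBPG was 0.816 to 1.01 and 2.87 to 4.18 times CEBPA. CEBPA fell from 32.7 ± 5.68 to 19.2 ± 3.1 CPM (SD, n = 3, log2 change -0.76 ± 0.16, adjusted p = 0.00411), while CEBPD rose from 14.1 ± 1.51 to 39.9 ± 4.72 CPM (log2 change 1.51 ± 0.12, adjusted p = 9.00e-05). ATF4 was 7.68 to 11.7 times ATF5 in normoxia and 28.6 to 47.6 times in hypoxia. Among the pairs compared, TRIB3 was the exception, at 6.34 to 6.94 times TRIB1 in normoxia and 6.33 to 8.78 times in hypoxia. TRIB1 itself rose (log2 change 0.70 ± 0.12, adjusted p = 0.00147). The relative in each pair was picked, and ratios to CEBPD or TRIB2, which rose as well, were not taken. Per kilobase CEBPD went from 11.3 to 31.9 CPM, beside 26.3 to 59 for CEBPB and 11.5 to 25.3 for CEBPG. Of the 10 genes listed as relatives, 4 were called higher, 3 lower and 3 were not called. Of all tested genes 30.4% were called higher and 29.1% lower. One of the 10, GADD45B, shares a name with GADD34 but is of another family. The other 2 called higher were TRIB2 (2.25 ± 0.47, adjusted p = 0.00416) and GADD45B (0.86 ± 0.19, adjusted p = 0.00503), where TRIB2 was at 3.00 without normoxia replicate 1, and the other 2 not called were ATF6B (-0.22 ± 0.09) and CREB3 (-0.25 ± 0.10). With the replicate block 5 of these 10 genes were called higher and 5 lower, since ATF6B and CREB3 were then called lower (adjusted p = 0.0358 and 0.018). Of all 15657 tested genes the block called 5733 higher and 5511 lower.

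**Figure D4:**
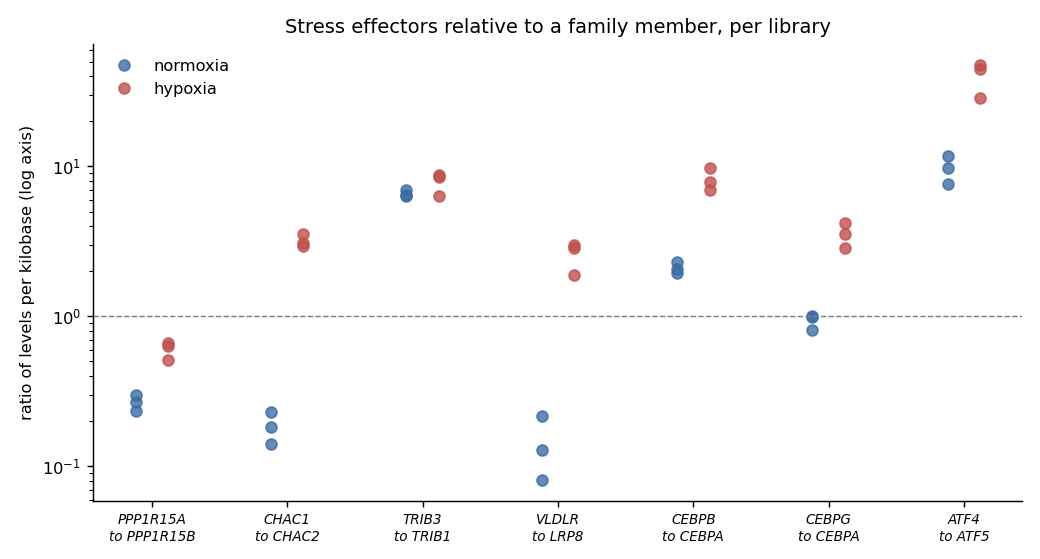
Ratio of the level per kilobase of a stress effector to that of a family member (vertical log axis, dashed line at 1) in each normoxia library (blue) and hypoxia library (red). CHAC1 passes from 0.14 to 0.229 of CHAC2 to 2.95 to 3.53 of it, and TRIB3 to TRIB1 is the 1 pair drawn whose ranges overlap.

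The patterns over the 6 libraries were compared as distances between log2 CPM profiles, each centred on its own mean. ASNS was left out here because it averaged under 100 counts. Among the other 9 of the 10 genes the closest were CEBPB and CEBPG, at a distance of 0.28, then TRIB3 and CEBPG at 0.32 and TRIB3 and CEBPB at 0.40. Among 12664 other genes that averaged 100 counts or more, those closest to ATF4 were ATXN7L2 at 0.12, TRIM2 at 0.13 and OSCP1 at 0.14. Those closest to DDIT3 were ARID5A at 0.32, FRAS1 at 0.38 and PGM2L1 at 0.38. Of the other effectors compared, TRIB3 was closest to ATF4, at 0.55, and VLDLR to DDIT3, at 0.99. How many other genes lay as close to CEBPB, CEBPG or TRIB3 was not counted. The points share libraries and depth, and the distances are descriptive.

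ATF4 binds DNA with a C/EBP partner at composite elements, and the promoters of the 10 genes were searched for the letters TGATGNAA on both strands. The windows are RefSeq promoters on GRCh38.p14, from 250 bases before to 50 after each annotated start, and all 10 genes had at least 1. Of the 10, 3 held the letters, CHAC1, ASNS and CEBPG, against 4.46% of 27305 genes with a window and 3.62% of 35116 windows. These 3 stretches are shown because they carry the match, with the matched letters in capitals and each read 5′ to 3′ on the strand of its gene.
CHAC1: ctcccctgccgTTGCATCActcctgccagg
ASNS: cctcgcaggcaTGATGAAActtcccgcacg
CEBPG: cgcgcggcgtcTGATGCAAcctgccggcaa
The CHAC1 stretch is chr15:40953251-40953280 (plus strand, GRCh38.p14), with the match on the opposite strand beginning 209 bases before the start. The ASNS stretch is chr7:97872458-97872487 (minus strand), 68 bases before the first of its 2 annotated starts, and the CEBPG stretch is chr19:33374060-33374089 (plus strand), 42 bases before the second of its 2 annotated starts. Matched by sequence to GRCh37, the CHAC1 and ASNS stretches overlap exons of those genes as counted, and the CEBPG stretch does not. The letters ACGTG, 1 form of the core of the hypoxia response element, were in a window of 1 of the 10 genes, ATF4. They were in those of 24.9% of all genes with a window, and other forms of the core were not searched. A match of letters is a description and not a binding site, and genes without one may hold such letters outside these windows.

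The genes around the 10 effectors were taken by role, and their counts are to be read against the 30.4% called higher and 29.1% called lower of all tested genes. Counts with the replicate block are to be read against the 5733 higher and 5511 lower of 15657 genes that it called. Of the 4 kinases of eIF2 alpha, 1 was called higher and 2 lower, with a median log2 change of -0.28 (changes of these genes are given ± SE). EIF2AK3, which encodes PERK, the kinase of the endoplasmic reticulum, measured 24.3 ± 1.76 CPM in normoxia and 30.6 ± 3.98 CPM in hypoxia (log2 change 0.33 ± 0.12, adjusted p = 0.0401). Its call was lost with DESeq2 and in 5 of the 6 fits that left out 1 library. EIF2AK2, which encodes the RNA sensor PKR, fell (log2 change -0.49 ± 0.13, adjusted p = 0.013), a call lost without normoxia replicate 1 and with upper-quartile factors. EIF2AK4, which encodes the amino acid sensor GCN2, fell too (-0.39 ± 0.07, adjusted p = 0.00261). EIF2AK1, the haem-regulated kinase, was not called (-0.17 ± 0.07, adjusted p = 0.087), but was called lower with the replicate block (adjusted p = 0.0326).

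Of the 8 genes for eIF2 and for its exchange factor eIF2B, 6 were called lower and 2 higher, with a median log2 change of -0.51. All 5 subunits of the exchange factor fell, of which the largest estimates were EIF2B3 (-1.05 ± 0.13, adjusted p = 4.46e-04), EIF2B2 (-0.81 ± 0.11, adjusted p = 7.43e-04) and EIF2B4 (-0.60 ± 0.09, adjusted p = 8.53e-04). EIF2B1 and EIF2B5 were also called lower, with log2 changes of -0.29 and -0.53, and the call of EIF2B1 was lost with upper-quartile factors. Of the subunits of eIF2 itself, EIF2S1, the alpha subunit, fell (-0.50 ± 0.08, adjusted p = 0.00147), and EIF2S3 (0.45 ± 0.12, adjusted p = 0.0113) and EIF2S2 (0.27 ± 0.08, adjusted p = 0.0164) rose. The call of EIF2S2 was lost in 4 of the 6 fits without 1 library, those without replicate 1 or 2 of either condition. Of 9 genes for the phosphatase and for modulators of the kinases, 1 was called higher and 4 lower, and with the replicate block 2 and 5, PPP1R15B higher and DNAJC3 lower (adjusted p = 0.0406) being added. NCK1, a signalling adaptor, rose (0.43 ± 0.09, adjusted p = 0.00452). GCN1, the activator of GCN2, fell (-0.66 ± 0.12, adjusted p = 0.00261), as did ABCF1 (-0.63 ± 0.09, adjusted p = 9.68e-04) and the catalytic subunit PPP1CA (-0.59 ± 0.18, adjusted p = 0.0213). The call of PPP1CA was lost without hypoxia replicate 1 or 2.

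Of the other bZIP factors, members of the family to which ATF4 and CHOP belong, 16 of 21 tested were called higher and 2 lower, with a median log2 change of 0.86. The largest fitted rise was in BATF3, from 2, 2 and 1 counts in the normoxia libraries to 18, 13 and 77 in hypoxia (adjusted p = 0.0012), with too few normoxia counts for a fold change. FOS rose from 0.735, 1.32 and 5.88 CPM to 23.6, 20.8 and 26.9 CPM (3.21 ± 0.62, adjusted p = 0.00295), with normoxia replicate 3 above the other normoxia libraries and a log2 change of 4.54 without it. NFIL3, a repressor of transcription, rose from 11.2 ± 0.985 to 41.6 ± 2.51 CPM (1.89 ± 0.10, adjusted p = 3.35e-05). Besides CEBPA, XBP1 fell, from 1528.6 ± 112 to 942 ± 129 CPM (-0.70 ± 0.12, adjusted p = 0.0016). XBP1 encodes a factor of the unfolded protein response that is activated by splicing, which gene counts do not show. FOSL1, JUND and ATF6 were not called, and CEBPE had 0 counts in every library. With the replicate block 17 were called higher, JUND among them (adjusted p = 0.0015).

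**Figure D5:**
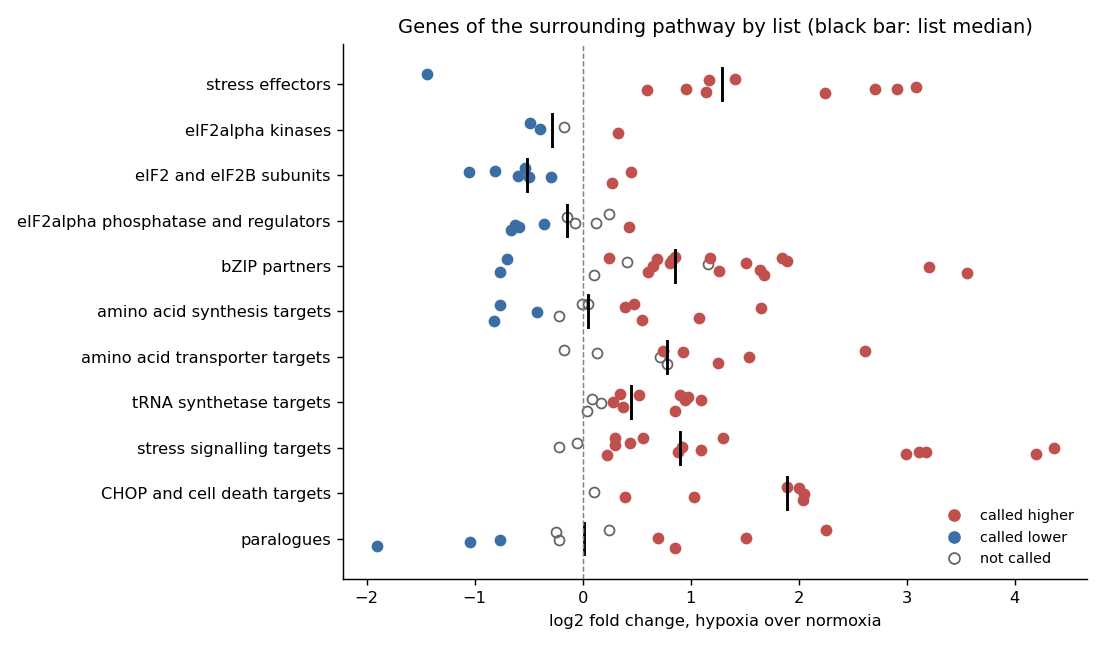
Log2 change of hypoxia over normoxia (horizontal axis) for each tested gene of the 10 stress effectors and of 10 lists around them, filled where called higher (red) or lower (blue) and open where not called, with the list median as a black bar. The medians run from -0.51 for the subunits of eIF2 and eIF2B to 1.89 for the CHOP and cell death targets.

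Known ATF4 targets in amino acid supply were mixed, and those in stress signalling and cell death were mostly higher. Of 11 enzymes of amino acid and one-carbon synthesis, 5 were called higher and 3 lower, with a median log2 change of 0.05. With the replicate block 4 were called lower, the added gene being PYCR1 (adjusted p = 0.0171). CBS (1.65 ± 0.20, adjusted p = 4.27e-04), PSAT1 (1.08 ± 0.28, adjusted p = 0.0109) and PHGDH (0.55 ± 0.19, adjusted p = 0.0383) rose most, but the call of PHGDH was lost without any 1 of the normoxia libraries or without hypoxia replicate 1. CTH (-0.82 ± 0.18, adjusted p = 0.00558), GOT1 (-0.76 ± 0.08, adjusted p = 2.28e-04) and ALDH18A1 (-0.42 ± 0.09, adjusted p = 0.0038) fell. CBS and CTH, which act in turn in the route from homocysteine to cysteine, thus moved in opposite directions. Of 9 amino acid transporters, 5 were called higher and none lower (with the replicate block 7 and 1, the 1 being SLC38A2), with a median of 0.78. SLC43A1 (2.61 ± 0.24, adjusted p = 1.31e-04), the cystine carrier SLC7A11 (1.54 ± 0.17, adjusted p = 2.41e-04) and the glycine carrier SLC6A9 (1.25 ± 0.21, adjusted p = 0.00148) rose most. SLC7A5 and SLC3A2, the chains of 1 leucine carrier, were not called, at 0.72 ± 0.30 (adjusted p = 0.0702) and 0.78 ± 0.30 (adjusted p = 0.0518), and both were highest in replicate 3 of each condition. With the replicate block both were called higher (adjusted p = 2.57e-05 and 4.37e-05).

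Of 12 cytosolic tRNA synthetases, 9 were called higher and none lower, with a median log2 change of 0.44. CARS (1.10 ± 0.08, adjusted p = 4.84e-05), AARS (0.98 ± 0.09, adjusted p = 1.34e-04) and TARS (0.95 ± 0.09, adjusted p = 1.63e-04) rose most, and LARS, MARS and NARS were not called. With the replicate block 10 were called higher, LARS among them (adjusted p = 0.0177). Of 16 stress signalling targets tested, 14 were called higher and none lower, with a median of 0.90. VEGFA rose from 39.2 ± 6.51 to 804 ± 35.8 CPM (log2 change 4.36 ± 0.13, adjusted p = 5.16e-06), and DDIT4, which encodes the mTORC1 inhibitor REDD1, from 15.9 ± 1.76 to 293 ± 24.6 CPM (4.20 ± 0.12, adjusted p = 4.20e-06). Both are also known targets of the hypoxia-inducible factors, and VEGFA is 1 of the 10 hypoxia genes, and what part of the changes described here went with the hypoxia genes was not tested. GDF15, a secreted stress signal, rose from 1.78 ± 0.837 to 16.2 ± 1.27 CPM (3.18 ± 0.29, adjusted p = 1.37e-04). STC2 and JMJD6 were not called, and FGF21 had too few counts to be tested (0 to 1 in normoxia and 6 to 33 in hypoxia).

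Of 7 CHOP and cell death targets tested, 6 were called higher and none lower, with a median log2 change of 1.89, the highest of the 10 lists around the effectors. PMAIP1, which encodes the BH3-only protein NOXA, rose from 2.58 ± 0.444 to 10.6 ± 0.582 CPM (2.05 ± 0.16, adjusted p = 8.32e-05). GADD45A rose from 3.02 ± 0.247 to 12.4 ± 0.791 CPM (2.04 ± 0.13, adjusted p = 4.43e-05), and ERO1A, an oxidase of the endoplasmic reticulum, from 101 ± 6.65 to 401 ± 39 CPM (2.00 ± 0.10, adjusted p = 2.39e-05). Of the death receptor genes, TNFRSF10B was called higher at 1.03 ± 0.10 (adjusted p = 1.82e-04) and TNFRSF10A was not called, at 0.11 ± 0.13 (adjusted p = 0.485). The difference between these receptors was not tested.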

How the data were processed

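RNA from 3 normoxia and 3 hypoxia libraries of T47D cells was sequenced from stranded mRNA preparations. The authors trimmed adapters (Skewer), mapped the reads to GRCh37 and deposited raw counts for RefSeq genes, 1 file per library. The submitters' processing notes name FastQC 0.11.5, STAR 2.5.2a and featureCounts 1.5.1. How strand and reads matching several genes were handled is not given in the sources used here. Groups and replicate numbers came from the sample titles.

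Counts were tested in R 4.3.3 with edgeR 4.0.16 (TMM, filterByExpr at its minimum count, 10, and minimum total, 15, quasi-likelihood test, condition as the only term, Benjamini-Hochberg adjustment over 15657 genes at 0.05, two-sided), and the fit was tested on simulated data. CPM are TMM-scaled, and 95% intervals come from the fit. The study's methods name edgeR's exact test for paired samples, without naming the pairs. The titles number the replicates 1 to 3 in each condition. Deviations of same-numbered libraries from their group means correlated at 0.338, 0.422 and 0.575 over 15657 genes, so the numbers were taken to pair the libraries. A fit with the number as a block is given where it changed the call of an effector or of a gene in the lists around them. SEs, intervals, adjusted p-values and calls not marked otherwise come from the fit without the block and so do not use this pairing. With the block the common biological variation (BCV) was 0.0751, and without it 0.141.

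Named genes were the 10 effectors, the 3 called genes of each list with the largest change each way, and the 3 genes closest to ATF4 and to DDIT3. Also named were 10 genes taken as relatives of the effectors, among them GADD45B, which is of another family. A further relative is not reported here. Genes named outside this rule, among them MARS, ASNSP1, FGF21, CEBPE, SLC7A5, SLC3A2, SLC38A2, JUND, LARS, PYCR1, DNAJC3, EIF2AK1, EIF2S1, EIF2B1, EIF2B5, the TNFRSF10 genes and the other genes given as not called, were picked with their values in view. The 10 effectors and the lists were chosen with earlier results of these data known. Alternatives were the exact test, DESeq2 1.42.0, other size factors, a filter of at least 1 count, the block, each library left out, replicate 3 of both conditions left out and stricter thresholds. Copies of exons were searched in GRCh37 with blastn 2.17.0 (at least 80% identity over 100 bases). Python 3.11.15 with matplotlib 3.10.9 made the plots.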

Additional observations from a re-analysis of the deposited data

How the results depend on the processing

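Each of the 10 effectors kept its direction and its call under all 13 alternatives. Over these the log2-fold change ran from 0.53 to 0.76 for ATF4, from -1.64 to -1.20 for ATF5, from 2.60 to 2.91 for DDIT3 and from 2.81 to 3.37 for VLDLR. The highest adjusted p was 0.00829 (edgeR), for ATF4 without normoxia replicate 1. Without replicate 3 of both conditions, which stood apart in VIM, ATF4 was at 0.72, ATF5 at -1.38 and DDIT3 at 2.76. Upper-quartile factors raised the median of all genes by 0.157 (log2) and called 5972 genes higher and 3285 lower, against 4765 and 4551 with TMM. The replicate block called 9 effectors higher and 1 lower, 5733 genes higher and 5511 lower, and beside the list genes given in the report it changed no call of an effector. Counts that moved by over 1.5 times were all of short lists. The eIF2 alpha kinases called higher were 0 with DESeq2 and 0 to 1 with 1 library left out, and those called lower 1 with upper-quartile factors and 1 to 2 with 1 library left out. The eIF2 and eIF2B genes called higher were 1 to 2 with 1 library left out. The phosphatase and regulator genes called higher were 2 with the block, with upper-quartile factors and without replicate 3 of both conditions, and 1 to 2 with 1 library left out. With the block 1 transporter was called lower. The relatives called lower, 3 in the report, were 5 with the block, with RLE size factors, with DESeq2 and without replicate 3 of both conditions. Over all genes, RLE size factors called 4691 higher and 4639 lower of 15657. DESeq2 called 4993 higher and 4834 lower of 22214, and the fit without replicate 3 of both conditions 5751 and 5506 of 15803. With 1 library left out, 3910 to 4991 genes were called higher and 3561 to 4924 lower, of 15808 to 16032 tested. Of the 40 list genes named by rule, 35 were called under every alternative and none reversed. For ASNS, with 8 to 12 counts per normoxia library, depth and shared exons limit the fold change.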
